A study of Mus musculus with 24 samples.

Results

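The cytochrome P450 genes of families 1 to 4, whose enzymes oxidise drugs, foreign chemicals and fatty acids, were followed through nucleotide excision repair of cisplatin damage in mouse kidney and liver. Every gene entry with a single symbol made of Cyp, a family number from 1 to 4, one subfamily letter and a gene number was taken, which gave 75 of 25239 entries in 21 subfamilies on 9 chromosomes. The entries came from XR-seq, which sequences the short oligomers that excision repair cuts out of damaged DNA. Oligomers were captured through the repair factor TFIIH and then with an antibody against the lesion, so a read marks a repair event and not an RNA. The extraction protocol names antibodies to other lesions at the second capture, while the treatment and the series' design name cisplatin, and which lesion was captured is not settled here. All groups were wild-type C57BL/6J female mice aged 6 months (strain label C57BL/6), housed under 12 h light and 12 h dark and given cisplatin at 10 mg/kg by intraperitoneal injection 2 h before tissue collection. Kidney and liver were each sampled at ZT0, ZT4, ZT8, ZT12, ZT16 and ZT20 (zeitgeber time, counted in hours from lights on), with 2 libraries at each time, which makes 12 libraries per tissue. Every group carried cisplatin, and no untreated library entered these comparisons. Nothing in the labels tells whether both libraries of a time stem from different animals, so the p-values rest on the spread of these samples alone, which may be technical.

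Cytochrome P450 enzymes are haem proteins of the endoplasmic reticulum that take electrons from the reductase encoded by Por. Families 1 to 3 handle many drugs and steroids, with hepatocytes as their main site, while family 4 enzymes hydroxylate fatty acids and eicosanoids in both liver and the proximal tubule of the kidney. On an active gene, a lesion in the transcribed strand (TS) that stalls RNA polymerase recruits excision repair, whereas the non-transcribed strand (NTS) relies on the slower genome-wide pathway. In XR-seq, reads from the TS of a gene therefore follow both its transcription and its damage.

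TS reads per library numbered 6334958 to 24236776 in kidney and 9538537 to 21050661 in liver, and NTS reads numbered 975978 to 3948748 and 1333813 to 2940892. Levels below are the authors' RPKM (reads per kilobase of gene, scaled to the library's size), given as mean ± SD over the 12 libraries of a tissue. One liver library, ZT0 replicate 1, stood apart: its median Pearson correlation with the other liver libraries was 0.976 over 16732 genes, against 0.987 to 0.992 for the other 11. Its summed level of 9 hepatocyte markers was 15.5 RPKM (19.9 to 23.2 in the others), and that of 7 endothelial markers was 4.83 RPKM (1.69 to 2.56). In this library 33 members had their lowest liver TS level and 4 (Cyp2j12, Cyp2j13, Cyp2s1 and Cyp4b1) their highest, so liver results are given with and without it where they change. Close paralogues, above all within Cyp2a, Cyp2b, Cyp2c, Cyp2d, Cyp3a and Cyp4a, share reads, and the sources used here do not say how reads that fit several genes were counted, so a value for one such gene is uncertain.

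In liver the 75 members together took 0.176% ± 0.0144 of all TS reads, and in kidney 0.0624% ± 0.0033. The median member was repaired on the TS at 0.687 RPKM in liver, above the median of 0.407 RPKM over all named entries, and at 0.0876 RPKM in kidney, below the median of 0.513 RPKM. 45 members in liver and 19 in kidney lay above those medians, and 2 in liver and 0 in kidney lay above the 90th percentile. Mean TS depth was under 20 reads per library for 28 members in kidney and 11 in liver, which limits what can be seen for them. In bulk tissue, fewer cells of a type and less repair per cell cannot be told apart.

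Cyp2d genes, relatives of the human drug-oxidising CYP2D6, headed both tissues. Cyp2d26 reached 4.12 ± 0.51 RPKM in liver and 1.69 ± 0.22 RPKM in kidney. Cyp2d22 reached 3.58 ± 0.37 RPKM in liver and 2.25 ± 0.25 RPKM in kidney. The 2 genes changed places at the head of the order, with ranges in liver of 3.48 to 4.91 RPKM and 3.01 to 4.17 RPKM that overlapped and ranges in kidney of 1.36 to 2.13 RPKM and 2.00 to 2.86 RPKM that overlapped at their ends. In liver they were followed by Cyp2d10 (2.75 ± 0.44 RPKM), Cyp2a12 (2.67 ± 0.36 RPKM), Cyp2d13 (2.60 ± 0.37 RPKM), Cyp4f13 (2.37 ± 0.14 RPKM), Cyp4f14 (2.17 ± 0.47 RPKM) and Cyp2e1 (2.15 ± 0.35 RPKM), neighbours whose ranges overlapped. In kidney the next were 2 fatty acid hydroxylases, Cyp4f17 (1.62 ± 0.08 RPKM) and Cyp4f13 (1.56 ± 0.15 RPKM), then Cyp2u1 (1.53 ± 0.15 RPKM), Cyp2s1 (1.23 ± 0.19 RPKM), Cyp4a31 (1.22 ± 0.25 RPKM) and Cyp2c44 (1.05 ± 0.14 RPKM), again with overlapping ranges between neighbours. Family 2 and family 4 genes thus shared the top of the kidney order.

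**Figure D1:**
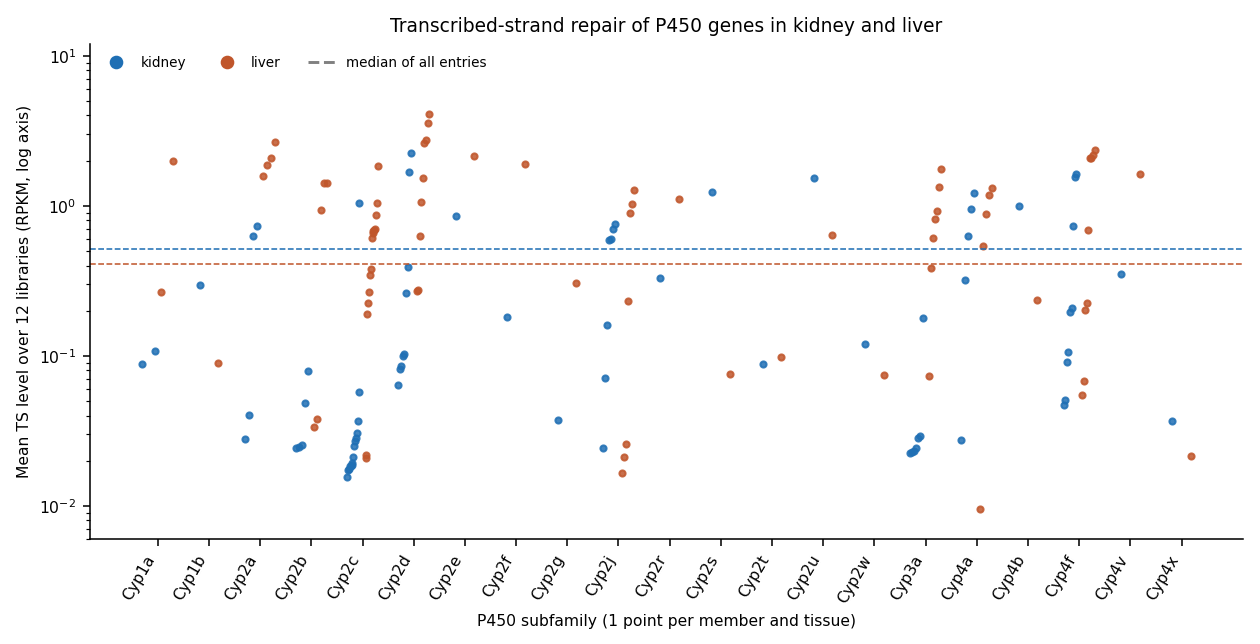
Mean TS repair level (RPKM, log axis) of each of the 75 members by subfamily on the horizontal axis, in kidney and liver, each point being the mean of 12 libraries and each dashed line the median of all entries in that tissue. Most liver points of Cyp2c and Cyp3a lie above the kidney points, Cyp2c65, Cyp2c66, Cyp2b19 and Cyp2b23 lie close together in the tissues, and Cyp2j11 and Cyp2s1 lie far higher in kidney (0.595 and 1.23 RPKM) than in liver (0.0259 and 0.0755 RPKM).

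The kidney was set against the liver over the means of the 6 times, with edgeR's quasi-likelihood test and Benjamini-Hochberg adjustment over all genes, calling adjusted p-values under 0.05. TS repair differed for 70 of 75 members, against 73.9% of all 19702 genes tested. 58 members were lower in kidney (31.7% of all genes) and 12 were higher (42.2% of all genes). The median member differed by -1.51 on the log2 scale, kidney minus liver, against 0.07 over all genes tested. The counts were 58 and 12 without the liver library that stood apart as well. Markers of the tissues moved the same way: all 9 hepatocyte markers tested were lower in kidney, at a summed 2.45 to 3.56 RPKM against 15.5 to 23.2 RPKM in liver, and 7 of 8 proximal tubule markers were higher, at 10.5 to 14.0 RPKM against 2.07 to 3.33 RPKM. No marker of these 2 lists was at 0 in a tissue's mean, and the part of cell makeup in the members' differences was not tested.

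Family 1, which oxidises polycyclic aromatic compounds under control of the Ah receptor, was split. Cyp1a2, a hepatocyte enzyme that clears caffeine, ranged from 0.945 RPKM (median 2.06) to 2.34 RPKM in liver and from 0.0366 RPKM (median 0.0865) to 0.161 RPKM in kidney, without overlap. It was lower in kidney by -4.60 ± 0.15 (log2, SE, edgeR adjusted p = 2.55e-15). Cyp1a1, the inducible member of the pair, differed by -1.30 ± 0.12 (adjusted p = 1.83e-08). Cyp1b1, an enzyme of cells outside the hepatocyte, was instead higher in kidney by 1.68 ± 0.15 (adjusted p = 1.07e-08), with 0.295 ± 0.096 RPKM in kidney and 0.0898 ± 0.035 RPKM in liver.

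All 4 Cyp2a and all 5 Cyp2b members, which hold steroid hydroxylases and phenobarbital-responsive genes, were lower in kidney (31.7% of all genes). Close paralogues share reads, so counts within a subfamily are not independent. Cyp2a22 differed by -6.39 ± 0.25 and Cyp2a12 by -6.32 ± 0.18, the widest gaps of any member. In kidney they had only 2 to 11 and 2 to 13 TS reads per library, so the size and order of these gaps are uncertain. Cyp2a12 ranged from 1.83 RPKM (median 2.77) to 3.03 RPKM in liver and from 0.0118 RPKM (median 0.034) to 0.0889 RPKM in kidney. Cyp2b9, a gene known for expression in female mouse liver, followed at -6.03 ± 0.18. The tissues did not overlap for Cyp2a12, whereas Cyp2a5 ranged from 0.713 to 2.00 RPKM in liver and from 0.453 to 1.03 RPKM in kidney, and Cyp2b19 and Cyp2b23 were low in both tissues with overlapping ranges.

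Cyp2c is the largest subfamily, with 15 members, and it took 0.0430% of TS reads in liver against 0.0056% in kidney. In kidney 14 of its members were lower and 0 were higher (31.7% and 42.2% of all genes), with a median difference of -4.23. Cyp2c29 differed by -5.73 ± 0.15 and Cyp2c37 by -5.36 ± 0.16, with 3 to 33 and 4 to 8 TS reads per library in kidney. Cyp2c44, an epoxygenase that makes epoxyeicosatrienoic acids in kidney and liver, differed far less, at 1.05 ± 0.14 RPKM in kidney and 1.84 ± 0.19 RPKM in liver (-0.87 ± 0.06). Cyp2c66 did not pass the test (-0.25 ± 0.13, adjusted p = 0.11).

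All 7 Cyp3a members, which metabolise steroids and a wide span of drugs, were lower in kidney (31.7% of all genes), with a median of -4.89. Cyp3a25 differed by -5.69 ± 0.14 and Cyp3a11, the pregnane X receptor target of mouse liver, by -4.06 ± 0.18. Cyp3a11 ranged from 0.239 RPKM (median 0.386) to 0.553 RPKM in liver and from 0.00454 RPKM (median 0.0239) to 0.0464 RPKM in kidney. The tissues did not overlap. Of the 9 Cyp2d members, 8 were lower and 1, Cyp2d12, was higher (31.7% and 42.2% of all genes). Cyp2e1, which oxidises ethanol and acetone, was lower by -1.40 ± 0.10.

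Several Cyp2 genes went the other way. Cyp2j11, of a subfamily of arachidonic acid epoxygenases, ranged from 0.477 RPKM (median 0.613) to 0.692 RPKM in kidney and from 0.0162 RPKM (median 0.0256) to 0.0342 RPKM in liver. The difference was 4.49 ± 0.11 (adjusted p = 4.98e-17), or 22.4-fold, the widest gap in the kidney's favour. The other Cyp2j genes had narrower gaps, in both directions. Of all 7 members 3 were higher and 4 lower in kidney (42.2% and 31.7% of all genes). Cyp2j5, an enzyme of kidney and liver, differed by -0.63 ± 0.05. The 7 members together took 0.0155% of TS reads in kidney and 0.0160% in liver, sums in which opposite differences offset each other. Cyp2s1, an extrahepatic P450, was higher in kidney by 3.97 ± 0.12, with 1.23 ± 0.19 RPKM against 0.0755 ± 0.0245 RPKM. Cyp2u1 was higher by 1.21 ± 0.06 and Cyp2j13 by 1.64 ± 0.16.

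Family 4 held both directions within a single cluster on chromosome 4. Cyp4a31 was higher in kidney by 1.14 ± 0.11, as was the sparsely repaired Cyp4a29, whereas the adjacent fatty acid omega-hydroxylases Cyp4a32 (-1.51 ± 0.12), Cyp4a14 (-0.98 ± 0.12) and Cyp4a10 (-0.53 ± 0.13) were lower. Cyp4b1, also in the cluster, was higher by 2.07 ± 0.15. Its liver level of 0.603 RPKM in ZT0 replicate 1 exceeded the other 11 liver libraries, which ranged from 0.138 to 0.264 RPKM, and the kidney libraries, from 0.765 to 1.20 RPKM, lay above all of them. Of the 9 Cyp4f members, 6 were lower and 0 higher in kidney (31.7% and 42.2% of all genes).

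Of 30 fixed P450 partners and regulators, 29 were tested and 21 differed (73.9% of all genes), 6 higher and 15 lower in kidney (42.2% and 31.7%). Nr1i3, the constitutive androstane receptor that drives Cyp2b genes, was lower by -3.44 ± 0.10, and Hnf4a, which encodes a hepatocyte and proximal tubule transcription factor, by -0.81 ± 0.04. The shared electron donor gene Por did not pass the test (0.06 ± 0.03, adjusted p = 0.0996).

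Promoters could be matched for 60 members, from RefSeq on GRCm38.p6 (the build named mm10), at start sites within 250 bases of the authors' start. The 250 bases before each start were searched on both strands. The HNF4-specific letters CAAAGTCCA were found in 8 member promoters, in Cyp2c and Cyp3a, and in 62 of all 16318 promoters (0.38%). They are shown because they let a member with little difference between the tissues, Cyp2c65, be read beside 7 with large ones, with 8 bases on each side and the match in capitals, 5′ to 3′ on the gene's strand.
Cyp2c40 (chr19:39812843-39812867, minus strand): cattgagaCAAAGTCCAtttggaag
Cyp2c65 (chr19:39060882-39060906, plus strand): tgttggaaCAAAGTCCActgggagg
Cyp2c67 (chr19:39649151-39649175, minus strand): cattgagaCAAAGTCCAtttggaag
Cyp2c68 (chr19:39741162-39741186, minus strand): cattgaaaCAAAGTCCAattggaag
Cyp2c69 (chr19:39886828-39886852, minus strand): cattgagaCAAAGTCCAtttggaag
Cyp2c70 (chr19:40187334-40187358, minus strand): gtcaaactCAAAGTCCAaactctgt
Cyp3a11 (chr5:145879947-145879971, minus strand): gagagtacCAAAGTCCAgtgatgca
Cyp3a16 (chr5:145469806-145469830, minus strand): gagacgacCAAAGTCCAggtgatgc

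The windows of Cyp2c40, Cyp2c67 and Cyp2c69 carry the same letters. TS repair in kidney minus liver was -4.87 for Cyp2c40, -4.78 for Cyp2c67, -4.81 for Cyp2c68, -4.17 for Cyp2c69, -5.22 for Cyp2c70, -4.06 for Cyp3a11 and -4.89 for Cyp3a16. Cyp2c65 holds the same 9 letters and differed by only -0.50 ± 0.19, with 0.0220 ± 0.0027 RPKM in liver. Over all tested members, with or without the letters, the median difference was -4.23 in Cyp2c and -4.89 in Cyp3a. Cyp2c37, whose searched promoter holds no exact match, was also lower in kidney, by a gap near that of Cyp2c70. Its kidney level rests on 4 to 8 TS reads per library. A match is a description of the letters and not of binding, and the part of the letters in the differences was not tested. A TATA box (TATAAA) stood in 23 of 60 member promoters and 12.0% of all, and the E-box CACGTG in 2 of 60 and 6.9% of all.

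NTS repair, which depends less on transcription, showed narrower gaps between the tissues. It differed for 63 of 74 members tested (66.1% of all 19124 genes), with 51 lower in kidney (32.2% of all genes) and 12 higher (33.9% of all genes). The median member differed by -1.01 against 0.02 over all genes. Scaling by total counts in place of TMM moved the median of all genes to 0.16 and left 46 members lower and 13 higher. Cyp2c37 had the widest gap, at -4.20 ± 0.19, with 0.167 ± 0.063 RPKM in liver and 0.0108 ± 0.0056 RPKM in kidney. Its kidney level rests on 0 to 9 NTS reads per library. Cyp3a44 followed at -3.58 ± 0.13. On the kidney side stood Cyp4a32 (1.08 ± 0.12), Cyp4f18 (1.07 ± 0.11) and Cyp4b1 (1.00 ± 0.12).

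The strand balance was tested in the libraries themselves, each gene's TS reads against its NTS reads with the library as a block and 1 library size for both strands. In liver 72 of 74 members differed (89.2% of all 19256 genes), 66 with more TS reads (77.9% of all genes) and 6 with more NTS reads (11.3% of all genes), and the median was 2.79 against 2.51 over all genes. In kidney 61 of 74 differed (89.7% of all 19756 genes), 51 with more TS reads (78.6% of all genes) and 10 with more NTS reads (11.1% of all genes), and the median was 0.72 against 2.34. These directions are relative to the reads of the library. With TMM over the strand columns, which sets the typical gene's strands equal and moved the median of all genes to 0.10 in liver and 0.01 in kidney, the members split into 38 above and 30 below in liver, and 18 above and 53 below in kidney.

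The most TS-biased members were epoxygenases of Cyp2j. Cyp2j9 had a log2 TS over NTS of 5.46 ± 0.10 in liver and 4.48 ± 0.11 in kidney, and Cyp2j6 of 5.09 ± 0.10 and 3.88 ± 0.11. Cyp4v3, a fatty acid hydroxylase, reached 4.22 ± 0.09 in liver, and Cyp4a31 reached 3.82 ± 0.10 in kidney. Cyp1a2, biased to the TS in liver at 3.95 ± 0.10, had 0.0876 ± 0.0354 RPKM on the TS and 0.0725 ± 0.0331 RPKM on the NTS in kidney.

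Some members had more NTS than TS repair. Cyp2t4, a P450 of little known function, had 3.40 ± 0.34 RPKM on the NTS and 0.0876 ± 0.0355 RPKM on the TS in kidney, and 3.24 ± 0.37 and 0.0977 ± 0.0317 RPKM in liver, a log2 TS over NTS of -5.17 ± 0.12 and -5.02 ± 0.11. Its end lies 0.094 kb from the end of Egln2 on the opposite strand, which had 6.31 RPKM on its own TS in kidney and 5.42 RPKM in liver. The strand that is non-transcribed for Cyp2t4 is thus the transcribed one for Egln2, and the part of that neighbour was not tested. In liver, Cyp2j11 had 0.222 ± 0.035 RPKM on the NTS and 0.0259 ± 0.0061 RPKM on the TS (-3.11 ± 0.12). Its nearest opposite-strand entries are Hook1, 270 kb downstream, and Nfia, 1233 kb upstream, and their part was not tested. Cyp2w1 followed in liver at -1.12 ± 0.19. In kidney, Cyp2d11 (-2.69 ± 0.14) and Cyp4f18 (-2.23 ± 0.12) came after Cyp2t4. RefSeq lists a microRNA at Cyp2d11 (Mir7684) and a long non-coding RNA at Cyp4f18 (Gm51535), and their part was not tested.

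The ratio itself differed between tissues for 59 of 75 members, in a test of strand by tissue (58.1% of all 20187 genes). In kidney 48 ratios were lower (35.9% of all genes) and 11 higher (22.2% of all genes), with a median of -1.08 against -0.14 over all genes. With TMM over the strand columns the counts were 47 and 12. All 7 Cyp3a members and 13 of 15 Cyp2c members had a lower ratio in kidney, and 0 of either subfamily a higher one. Cyp2b9 differed by -4.68 ± 0.19, and Cyp2d11 by -4.13 ± 0.19, Cyp2f2 by -4.09 ± 0.13 and Cyp2d10 by -4.07 ± 0.19. Cyp2f2, which oxidises naphthalene, turned from 1.89 ± 0.22 RPKM on the TS and 0.275 ± 0.045 on the NTS in liver to 0.181 ± 0.04 and 0.439 ± 0.062 RPKM in kidney. Cyp2j11 turned the other way by 5.08 ± 0.13 and Cyp2s1 by 3.33 ± 0.16.

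Cyp4a32 was lower in kidney on the TS, at 0.321 ± 0.058 RPKM against 0.884 ± 0.248 RPKM in liver, and higher on the NTS, at 0.205 ± 0.05 RPKM against 0.0782 ± 0.0223 RPKM. Its ratio differed by -2.84. Cyp4b1 lies on the opposite strand 2.36 kb from its end and had 0.999 RPKM on its TS in kidney and 0.237 RPKM in liver. The part of that neighbour was not tested.

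**Figure D2:**
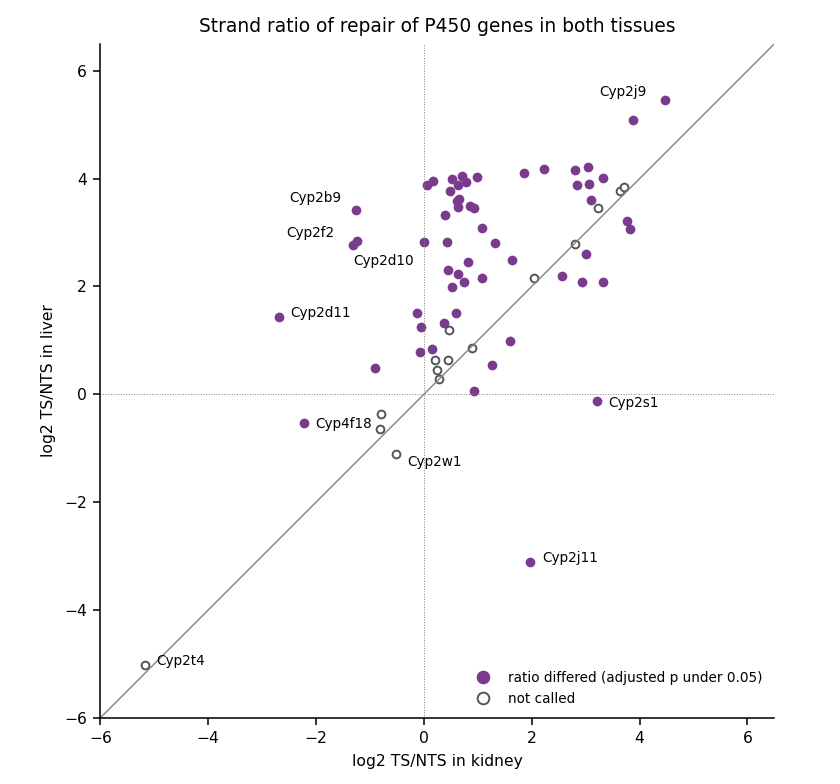
Log2 TS over NTS of each member in kidney (horizontal) and liver (vertical), 1 point per member tested in both tissues, filled where the ratio differed between tissues, with the line of equal ratios. Most points lie above the line, towards a higher ratio in liver, Cyp2j11 lies far below it, and Cyp2t4 lies near it at about equal negative values (-5.17 in kidney and -5.02 in liver).

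Time of day was tested within each tissue as a 24 h cosine fitted to log2 counts, with edgeR's quasi-likelihood test and adjustment over all genes. The amplitude is the log2 distance from mean to peak, and the peak time is in hours of ZT. In kidney, TS repair of 8 of 74 members varied with time of day, against 15.0% of all 19277 genes tested. Of the 8, 7 peaked between 4 and 12 h and 1 between 16 and 24 h. Of the 2885 genes called, 808 peaked in the day window and 2016 in the night window (4.19% and 10.5% of all genes tested). The 7 included 4 Cyp4a genes. With the replicate number as a block, which pairs the kidney libraries, 15 members passed (25.4% of all genes), all 8 included, with 10 peaks in the day window and 5 in the night window.

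Cyp4a10 had 0.740 and 0.818 RPKM at ZT0, 1.15 and 1.06 at ZT4, 1.17 and 1.14 at ZT8, 1.06 and 1.13 at ZT12, 0.937 and 0.746 at ZT16, and 0.810 and 0.681 at ZT20. All 6 libraries from ZT4 to ZT12 lay above all 6 of the other times. The amplitude was 0.33 ± 0.05 (SE), a peak-to-trough fold of 1.59, with a peak at 8.4 h (edgeR adjusted p = 0.00244). Cyp4a31 had 0.935 and 1.01 RPKM at ZT0, 1.46 and 1.41 at ZT4, 1.63 and 1.55 at ZT8, 1.31 and 1.18 at ZT12, 1.09 and 0.930 at ZT16, and 1.03 and 1.04 at ZT20. Its amplitude was 0.32 ± 0.05 with a peak at 7.5 h (adjusted p = 0.0026), and it was the one member that also passed a test of any difference among the 6 times (adjusted p = 0.0403). Cyp4a14 rose from 0.435 and 0.371 RPKM at ZT20 to 0.838 and 0.724 RPKM at ZT12, peaking at 8.7 h (amplitude 0.40 ± 0.08) (adjusted p = 0.0115). Cyp4a32 ranged from 0.218 RPKM (median 0.331) to 0.408 RPKM, and peaked at 8.1 h (amplitude 0.29 ± 0.07) (adjusted p = 0.0334). Summed over the subfamily, Cyp4a had an amplitude of 0.32 ± 0.04 with a peak at 8.1 h (adjusted p = 3.75e-04). The Cyp4a genes are known targets of the fatty acid sensor PPAR-alpha.

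Cyp4b1 had 0.869 and 0.776 RPKM at ZT0, 1.20 and 1.06 at ZT12 and 0.765 and 0.832 at ZT20. Its amplitude was 0.25 ± 0.05 with a peak at 9.8 h (adjusted p = 0.00658). Cyp1b1 had the widest fitted amplitude of the 8, at 0.56 ± 0.10 with a peak at 8.2 h (adjusted p = 0.00649). It rose from 0.178 and 0.157 RPKM at ZT20 to 0.345 and 0.466 RPKM at ZT8. Cyp2j13, with 18 to 90 TS reads per library, peaked at 6.8 h with an amplitude of 0.50 ± 0.13 (adjusted p = 0.0447). By the means of each time, Cyp2j13 spanned 2.53-fold and Cyp1b1 2.42-fold, so their order is uncertain.

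Cyp2c44 ran opposite to the Cyp4a genes. It had 1.06 and 1.16 RPKM at ZT0, 1.05 and 1.08 at ZT4, 0.994 and 0.808 at ZT8, 0.966 and 0.849 at ZT12, 1.15 and 1.01 at ZT16, and 1.16 and 1.30 at ZT20. The 4 libraries of ZT8 and ZT12 were the lowest 4. The amplitude was 0.25 ± 0.05 with a peak at 21.1 h (adjusted p = 0.0085), and the Cyp2c sum passed too (0.26 ± 0.05, 21.1 h, adjusted p = 0.0101), but Cyp2c44 alone gave 63.7% of its reads. In kidney 5 of 21 subfamily sums passed (15.0% of all features in that fit): Cyp4a, Cyp1b, Cyp4b, Cyp2c and Cyp2a. Cyp1b and Cyp4b hold 1 member each and repeat its call, and Cyp2a kept its call in 6 of 13 other settings (adjusted p up to 0.166).

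Without kidney ZT8 replicate 2 the count fell to 5 members and 908 genes in all, and Cyp4a32 (adjusted p = 0.0503), Cyp2c44 (0.0591) and Cyp2j13 (0.0634) no longer passed. Over all other settings Cyp4a32 kept its call in 11 of 18 (adjusted p up to 0.111) and Cyp2j13 in 10 of 17 (up to 0.139). Cell type markers varied with time in the kidney as well. Of 8 proximal tubule markers 3 passed (15.0% of all genes), all with peaks between 4 and 12 h (4.19% of all genes). The summed level of the 8 was 13.2 to 14.0 RPKM in the ZT4 and ZT8 libraries and 10.5 to 12.0 RPKM in the others. Of 7 endothelial markers 4 passed (15.0% of all genes), 3 in the day window (4.19% of all genes), with a summed level of 1.76 to 2.97 RPKM over all kidney libraries. None of these markers was at 0 in a tissue's mean, and their part in the members' rhythm was not tested.

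**Figure D3:**
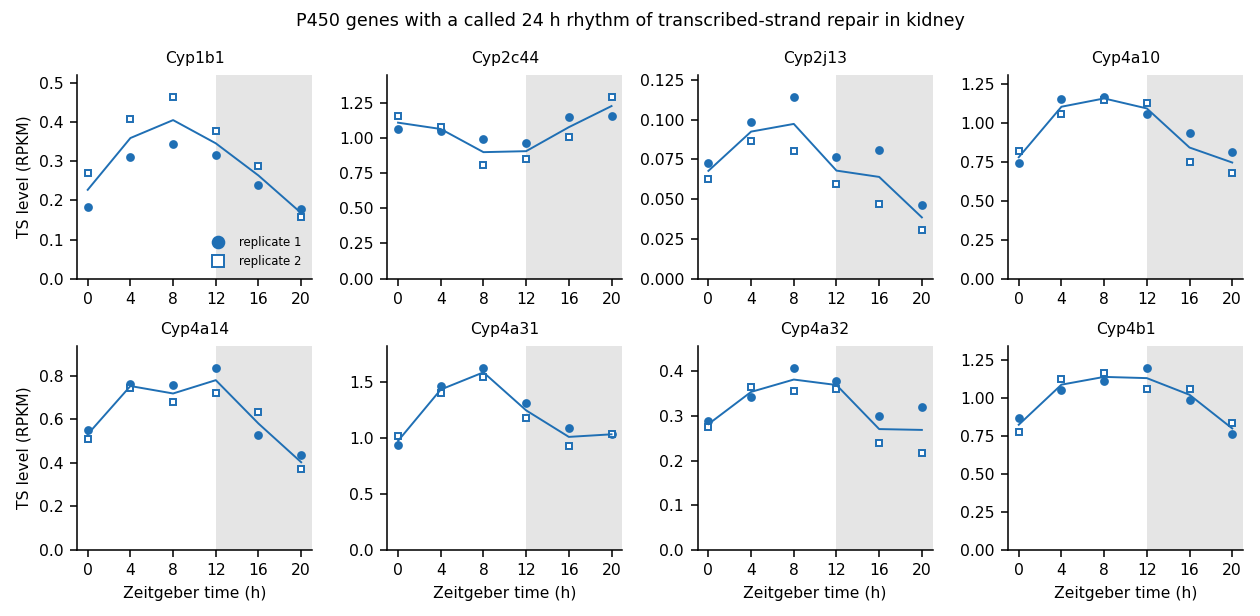
TS repair (RPKM) against ZT (h) for the 8 members called in kidney, with 1 point per library, a line through the mean of the 2 libraries of each time, and the dark phase shaded. The fitted peaks of Cyp4a10, Cyp4a31, Cyp4a14, Cyp4a32, Cyp4b1, Cyp1b1 and Cyp2j13 lie in the day, and that of Cyp2c44 late in the night. By the means of each time, Cyp4a14 is highest at ZT12.

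In liver, TS repair of 10 of 73 members varied with time of day (16.6% of all 18655 genes tested). Of these, 6 peaked between 16 and 24 h and 4 between 4 and 12 h. Of the 3098 genes called, 1802 peaked in the night window and 1144 in the day window (9.66% and 6.13% of all genes tested). The night group held 5 Cyp2c genes and Cyp4f14, and the day group held 4 Cyp2d genes. Without the liver library that stood apart, ZT0 replicate 1, 17 members passed (23.8% of all genes), all 10 included, with 9 night and 7 day peaks. Without ZT0 replicate 2 the count was 16 (17.6% of all genes), again with all 10 included, but with 6 night and 10 day peaks.

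Cyp2c37, which makes hydroxylated and epoxidised products of arachidonic acid, had 0.785 and 0.806 RPKM at ZT0, 0.468 and 0.396 at ZT4, 0.371 and 0.365 at ZT8, 0.573 and 0.442 at ZT12, 1.21 and 0.641 at ZT16, and 1.15 and 0.938 at ZT20. Every library from ZT16 to ZT0 exceeded every library from ZT4 to ZT12. The amplitude was 0.82 ± 0.10, a peak-to-trough fold of 3.13, with a peak at 19.4 h (adjusted p = 7.13e-04). Cyp2c55 had its highest mean at ZT0, from 0.228 and 0.370 RPKM, and low values of 0.101 and 0.122 RPKM at ZT8 and 0.108 and 0.109 RPKM at ZT12. Its amplitude was 0.77 ± 0.11 with a peak at 22.2 h (adjusted p = 0.00183).

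Cyp2c50 had 0.351 and 0.342 RPKM at ZT0, 0.279 and 0.211 at ZT4, 0.260 and 0.215 at ZT8, 0.522 and 0.396 at ZT12, 0.542 and 0.408 at ZT16, and 0.458 and 0.564 at ZT20. Its amplitude was 0.62 ± 0.10 with a peak at 17.3 h (adjusted p = 0.00368). The neighbouring Cyp2c54 followed a like course, from 0.168 and 0.0883 RPKM at ZT8 to 0.365 and 0.250 RPKM at ZT12, peaking at 16.6 h (amplitude 0.66 ± 0.13) (adjusted p = 0.00957). In both genes the ZT12 libraries lay above those of ZT4 and ZT8. Cyp2c69 ranged from 0.348 RPKM (median 0.609) to 0.860 RPKM and peaked at 21.3 h (0.43 ± 0.10, adjusted p = 0.0262). The Cyp2c sum missed the threshold (0.19, 20.2 h, adjusted p = 0.0647) and passed without ZT0 replicate 1 (0.22, adjusted p = 0.00604). Cyp4f14, a leukotriene and fatty acid hydroxylase, had 1.69 to 2.05 RPKM in the ZT4 to ZT12 libraries and 2.48 to 3.23 RPKM at ZT16 and ZT20 (0.37 ± 0.06, peak at 18.7 h, adjusted p = 0.00291).

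The 150 bases before the start sites of Cyp2c37 and Cyp2c50 are shown, since these neighbouring genes both peaked at night and their promoters carry 131 equal bases in 148 aligned positions (88.5%). Pairs with Cyp2c55 or Cyp2c69, which also peaked at night, were less alike, at 58.5% to 69.0%. The part of promoter likeness in the peaks was not tested. Letters of a searched motif are in capitals, here the CCAAT box, found in 25 of 60 member promoters and 35.8% of all.
Cyp2c37 (GRCm38.p6 chr19:39992274-39992423, plus strand): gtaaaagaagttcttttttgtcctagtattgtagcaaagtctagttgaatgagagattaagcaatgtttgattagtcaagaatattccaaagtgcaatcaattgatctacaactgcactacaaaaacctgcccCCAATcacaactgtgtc
Cyp2c50 (GRCm38.p6 chr19:40089529-40089678, plus strand): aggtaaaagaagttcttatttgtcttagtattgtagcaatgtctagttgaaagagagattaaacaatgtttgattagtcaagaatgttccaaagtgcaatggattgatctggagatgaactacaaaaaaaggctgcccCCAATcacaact

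No D-box (TTATGTAA or TTACGTAA), the element that DBP, TEF and HLF read, was found in the 250 bases before any of the 60 member starts, and 0.815% and 0.135% of all promoters held them. That says only that these letters are not in this window.

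The 4 Cyp2d genes rose by day and by small steps. Cyp2d26 had 3.48 and 3.63 RPKM at ZT0, 4.29 and 4.58 at ZT4, 4.76 and 4.51 at ZT8, 4.91 and 4.48 at ZT12, 3.76 and 3.73 at ZT16, and 3.61 and 3.71 at ZT20. All 6 libraries from ZT4 to ZT12 lay above the other 6. The amplitude was 0.21 ± 0.04 with a peak at 8.9 h (adjusted p = 0.015). Cyp2d10 had an amplitude of 0.25 ± 0.06 with a peak at 9.5 h (adjusted p = 0.0328), Cyp2d11 one of 0.37 ± 0.08 at 9.9 h (adjusted p = 0.0165), and Cyp2d22 one of 0.17 ± 0.04 at 10.3 h (adjusted p = 0.0145). The Cyp2d sum passed (0.20 ± 0.04, 9.8 h, adjusted p = 0.00736), the one of 20 subfamily sums to do so in liver (16.6% of all features in that fit). After removal of a trend with gene length, Cyp2d22 (adjusted p = 0.0884), Cyp2d26 (0.119) and Cyp2d10 (0.15) no longer passed. Cyp2d10 kept its call in 6 of 17 other settings and lost it on leaving out any single library except both of ZT0 and replicate 1 of ZT4 (adjusted p from 0.0515 to 0.109).

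Promoters of Cyp2d11 and Cyp2d10, adjacent genes that both peaked by day, carry 112 equal bases in 141 aligned positions (79.4%). The promoter of Cyp2d26, which also peaked by day, was less alike, at 58.6% with each of them. The part of this likeness in the peaks was not tested. The capitals mark TATA boxes, which read TTTATA where they lie on the other strand, and in Cyp2d11 also a CCAAT box read as ATTGG.
Cyp2d11 (GRCm38.p6 chr15:82394023-82394172, minus strand): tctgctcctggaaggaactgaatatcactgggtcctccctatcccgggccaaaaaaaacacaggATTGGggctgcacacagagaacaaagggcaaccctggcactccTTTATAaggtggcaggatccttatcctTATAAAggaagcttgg
Cyp2d10 (GRCm38.p6 chr15:82407195-82407344, minus strand): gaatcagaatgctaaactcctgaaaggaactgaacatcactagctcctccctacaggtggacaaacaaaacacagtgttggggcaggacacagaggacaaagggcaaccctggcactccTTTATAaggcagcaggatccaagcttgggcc

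In liver 9 of 29 partners and regulators varied with time of day (16.6% of all genes), 8 with peaks between 4 and 12 h (6.13%). Dbp, a clock-controlled transcription factor gene, had an amplitude of 1.30 ± 0.19 with a peak at 11.04 h, and Tef, its relative, 0.53 ± 0.06 at 11.6 h. In kidney 6 of 29 passed (15.0% of all genes), with Dbp at 0.93 ± 0.07 and 10.2 h. In liver 1 of 9 hepatocyte markers and 0 of 7 endothelial markers varied, where the hepatocyte sum was 19.9 to 23.2 RPKM outside ZT0 replicate 1.

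**Figure D4:**
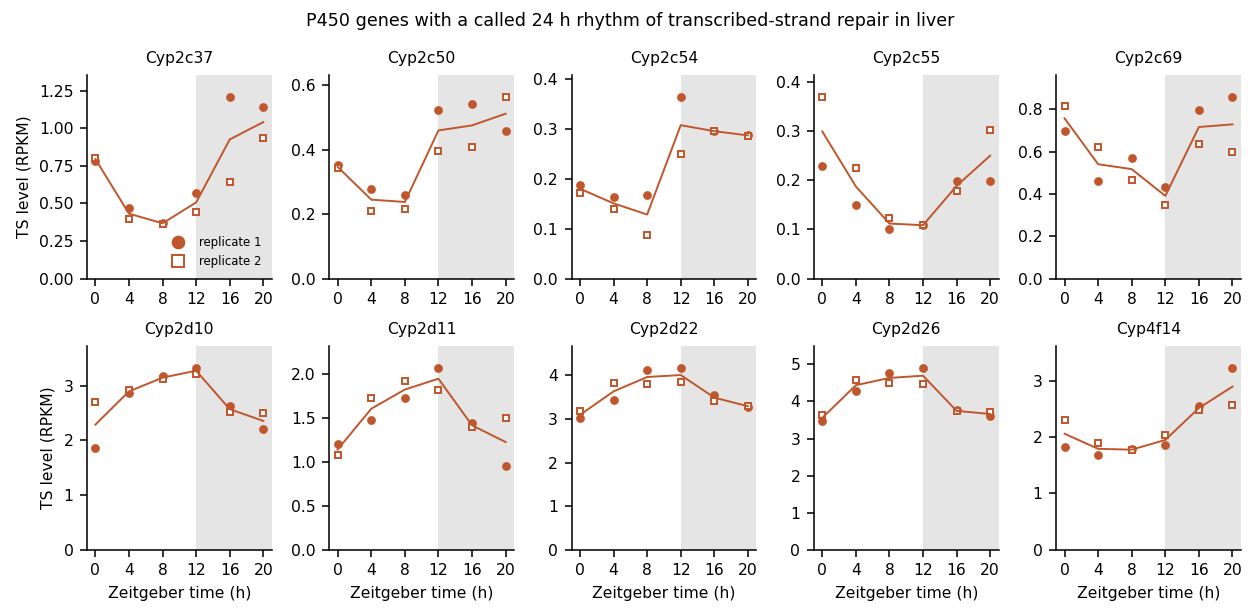
TS repair (RPKM) against ZT (h) for the 10 members called in liver, drawn the same way: 1 point per library, a line through the means, and the dark phase shaded. The fitted peaks of the 5 Cyp2c genes and Cyp4f14 lie at night, and those of the 4 Cyp2d genes in the day. By the means of each time, Cyp2c55 and Cyp2c69 are highest at ZT0 and the 4 Cyp2d genes at ZT12.

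Rhythms of the 2 tissues were compared in a direct test of their difference, which called 0 of 75 members (0.939% of all 19702 genes). Adding the replicate numbers as a block, 2 members passed (2.27% of all genes), Cyp2c55 (adjusted p = 0.0441) and Cyp4f17 (adjusted p = 0.0455). At an unadjusted p under 0.05, edgeR counted 7 members (9.33%, against 12.0% of all genes), and DESeq2 called 2, Cyp2c55 (adjusted p = 0.0155) and Cyp3a59 (adjusted p = 0.0339). Cyp2c55 had the smallest p by edgeR (0.00167, adjusted p = 0.1), with an amplitude of 0.77 in liver and 0.07 in kidney, and passed at 0.0373 without liver ZT0 replicate 1. The Cyp4a genes, called in kidney, had liver amplitudes of like size with wider scatter. Cyp4a10 had 0.33 in kidney and 0.33 in liver (peak at 6.8 h, adjusted p = 0.309), and Cyp4a31 0.32 and 0.43 (6.3 h, adjusted p = 0.129). In liver Cyp4a10 missed the threshold in 16 of 17 other settings, but not in all. Its 2 liver ZT0 libraries read 0.731 and 2.06 RPKM. The 4 Cyp2d genes called in liver had kidney amplitudes of 0.05 for Cyp2d26, 0.06 for Cyp2d22, 0.07 for Cyp2d10 and 0.23 for Cyp2d11 (peak at 6.4 h, adjusted p = 0.734).

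On the NTS, 1 of 70 members varied with time of day in kidney (2.12% of all 18932 genes) and 3 of 74 in liver (3.74% of all 18061 genes). The kidney gene was Cyp2b9 (0.53 ± 0.12, peak at 17.4 h, adjusted p = 0.0447), whose call held in 11 of 17 other settings. With the replicate number as a block 4 members passed (7.78% of all genes). In liver Cyp2g1, known from the olfactory epithelium, had 0.0757 and 0.162 RPKM at ZT0, 0.288 and 0.298 at ZT4, 0.430 and 0.335 at ZT8, 0.379 and 0.236 at ZT12, 0.143 and 0.142 at ZT16, and 0.118 and 0.141 at ZT20. The libraries of ZT4 to ZT12 were the 6 highest. The amplitude was 0.80 ± 0.12 with a peak at 8.2 h (adjusted p = 1.95e-04), whereas its TS did not pass (0.32 ± 0.14, adjusted p = 0.3). Cyp2c37 varied on the NTS too, with a peak at 16.3 h (0.54 ± 0.13, adjusted p = 0.0416), and Cyp2b19 with a peak at 6.6 h (0.63 ± 0.15, adjusted p = 0.0425). These calls held in 10 of 17 other settings for Cyp2c37 (adjusted p up to 0.169, without ZT4 replicate 2) and in 9 of 16 for Cyp2b19 (up to 0.284, without ZT8 replicate 2), and that of Cyp2g1 in 17 of 17. RefSeq lists a long non-coding RNA at Cyp2g1 (Gm51443) and at Cyp2b19 (Gm51442), and their part was not tested.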

How the data were processed

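Repaired oligomers of 24 libraries had been counted per gene and strand; the authors deposited read counts and RPKM values for the TS and the NTS, and the build is mm10, per the submitters' processing notes. Which aligner and counter were run is not given in the sources used here. Counts were fitted with edgeR 4.0.16 (R 4.3.3, limma 3.58.1): filterByExpr, TMM scaling (factors 0.918 to 1.13), quasi-likelihood tests and Benjamini-Hochberg adjustment at 0.05 over all genes. RPKM served only to describe levels. Entries without a symbol held 2.72% to 2.81% of TS reads. Kidney replicate numbers pair the libraries: same-numbered kidney libraries deviated together in 15 of 15 pairs of times (correlation 0.121 to 0.365), against 6 of 15 in liver. Alternatives were DESeq2 1.42.0, total-count scaling, no filter, a replicate block, a gene-length trend and leaving out each library. The methods were tested on simulated data with a fixed effect size and a fixed spread, changed only in genes of higher counts. Smaller effects and sparse genes were not covered by it. The members and lists were chosen with earlier results of these data known. Named members were those called in a TS rhythm, the extremes of each contrast (6 each way between tissues, 3 each way between strands), the 8 most repaired per tissue, and Cyp1a1, Cyp1a2, Cyp2e1, Cyp3a11, Cyp4a10, Cyp4a14 and Cyp2j5; Cyp2c65, Cyp2c66, Cyp2d12, Cyp2f2 and Cyp2g1 were singled out after their values were seen.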

Additional observations from a re-analysis of the deposited data

Results flagged for a closer look

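The TS over NTS ratio of 59 members differed between kidney and liver in a test of strand by tissue, which called 58.1% of all 20187 genes. The members named for their strand balance that passed it were, on the log2 scale as kidney minus liver, Cyp2d11 (-4.13), Cyp4f18 (-1.71), Cyp2j6 (-1.21), Cyp4v3 (-1.16), Cyp2j9 (-0.97), Cyp4a31 (0.76) and Cyp2j11 (5.08).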

How the results depend on the processing

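Of 49 counts of members recomputed under another setting with all libraries, 37 stayed within 1.5 times, and of 533 values of named members and subfamilies 510 kept direction and side of the threshold. In the counts of members, the cause of each change was not tested. A replicate block gave 15 members (kidney TS rhythm), 4 (kidney NTS rhythm), 2 (liver subfamily sums) and 2 (tissue difference in rhythm). A test of any difference among the 6 times gave 1 member in kidney TS, 0 in kidney NTS and 4 in liver TS. Without the filter on low counts, 4 passed in kidney NTS and 6 in liver NTS. Total-count scaling gave 3 in kidney NTS, and DESeq2 gave 2 there and 2 for the tissue difference. Over all genes, the kidney TS rhythm count went from 2885 to 4900 with the block and 196 for any difference, the liver one from 3098 to 549, and the tissue difference from 185 to 706 with DESeq2 and 447 with the block. In kidney NTS the 401 became 1473, 1171, 635 and 17 (block, no filter, DESeq2 and any difference). In liver NTS the 675 became 1156 without the filter. With TMM over the strand columns, TS minus NTS reversed for Cyp1a2 (-2.13) and Cyp3a11 (-1.49) in kidney and Cyp1a1 (-1.16) in liver. Leaving out 1 library at a time gave 5 to 10 members (kidney TS rhythm), 0 to 3 (kidney NTS), 7 to 17 (liver TS), 1 to 4 (liver NTS), 3 to 5 and 1 to 3 subfamily sums (kidney and liver), 69 to 71 and 60 to 65 (kidney against liver, TS and NTS), 58 to 63 and 70 to 72 (TS against NTS, kidney and liver), 57 to 61 (strand ratio by tissue) and 0 to 1 (tissue difference in rhythm). A lone library of a time is then assumed to vary like the others. Low kidney depth limits what can be seen for the 28 members under 20 TS reads.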
